A study of Homo sapiens with 6 samples.

Results

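The ATF4 programme was followed as 44 genes, chosen by name: ATF4 itself, its partners and stress-responsive targets (11 genes), enzymes that make amino acids and mitochondrial folate units (11), amino acid transporters (9), and ligases that charge tRNAs in the cytosol (13). All 44 were found once each among the 57819 genes of the deposited table, and all 44 passed the filter on low values. RNA came from IMR90 ER:Ras cells, a human lung fibroblast line with an oncogenic Ras joined to the hormone-binding part of the estrogen receptor. All cells had received 200 nM 4-hydroxytamoxifen (4OHT) for 3 days, which switches the fusion protein on and drives the cells into senescence, and no vehicle-treated library was analysed here. The groups were a scrambled control siRNA (siSCR) and an siRNA against the senescence-linked long noncoding RNA sin-lncRNA (sin-lncRNA KD), with 3 polyA libraries each. A single siRNA name (si1) appears in the sample labels of the knockdown group. The column names of the deposited table add a suffix to that name, which is not explained. Whether a single siRNA or a mixture was used is therefore uncertain. In either case, effects of the siRNA treatment and effects of losing the lncRNA cannot be told apart. The labels do not say whether replicates were separate cultures, so p-values measure the spread between these libraries, which may be technical.

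ATF4 is a transcription factor whose mRNA is translated more when stress kinases phosphorylate the initiation factor eIF2, so the level of its mRNA need not follow that of its protein. Its targets refill the cell with amino acids: they synthesise serine, glycine, proline and asparagine, import others, and load them onto tRNAs. Other targets act as feedback and death signals, such as DDIT3 (CHOP), TRIB3 and CHAC1. In fibroblasts, glycine and proline made under ATF4 also feed collagen production.

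The libraries held 30271192 to 50913672 reads in genes in controls and 22117324 to 27882280 in knockdowns, so that every knockdown library was shallower. The targeted lncRNA checked the labels: sin-lncRNA stood at 4.17 ± 0.52 RPM (reads per 1000000 of effective library size) in controls and 0.556 ± 0.076 in knockdowns (SD, n = 3). Fibroblast markers (8 genes) summed to 15189 to 16371 RPM in controls and 10692 to 11119 in knockdowns. Markers of other cells were near zero: 4 epithelial genes summed to at most 0.533 RPM (KRT5 had no read), 3 blood genes to at most 0.249 and 2 endothelial genes to at most 2.60, nearly all of it VWF. Of the 8 fibroblast genes 5 fell (COL1A1, COL1A2, PDGFRB, DCN and VIM) and 3 rose (COL3A1, THY1 and LUM). The most abundant weigh most in the sum. From controls to knockdowns, mean RPM went from 6617 to 3599 for COL1A1 and from 3695 to 2167 for COL1A2. For VIM it went from 3197 to 2430, and for COL3A1 from 1555 to 2015. The lower sum of fibroblast markers moved with the knockdown, and its part in the results below was not tested.

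After knockdown, 8 of the 44 genes rose and 13 fell, 21 in all, at an adjusted p under 0.05 in limma with Benjamini-Hochberg adjustment. That is 47.7%, beside 41.0% of the 19048 genes tested (17.5% higher and 23.5% lower) and 48.6% of the 13002 protein-coding ones (22.2% higher and 26.4% lower), so the share changed among these genes was near the background. Their median log2 fold change was -0.05, and that of all genes tested was -0.04. It was -0.09 without control replicate 1 and -0.02 without control replicate 2. The changes were modest: the 21 had a median size of 0.28 on the log2 scale, and 0 of the 44 moved by 1 or more. By role, among stress regulators 3 rose and 6 fell (81.8% called), and among biosynthetic enzymes 5 rose and 0 fell (45.5%). Among transporters 0 rose and 3 fell (33.3%), and among tRNA ligases 0 rose and 4 fell (30.8%). The shares of transporters and ligases lie below that of all genes tested, and the share of enzymes lies below that of protein-coding genes. These counts describe the roles, and no difference between roles was tested. The 3 libraries of each group did not overlap for 24 of the 44 genes (54.5%), beside 51.1% of all genes tested. For any single gene the exact two-sided permutation test cannot go below p = 0.1 with 3 libraries against 3, so calls rest on the model fitted across all genes.

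**Figure D1:**
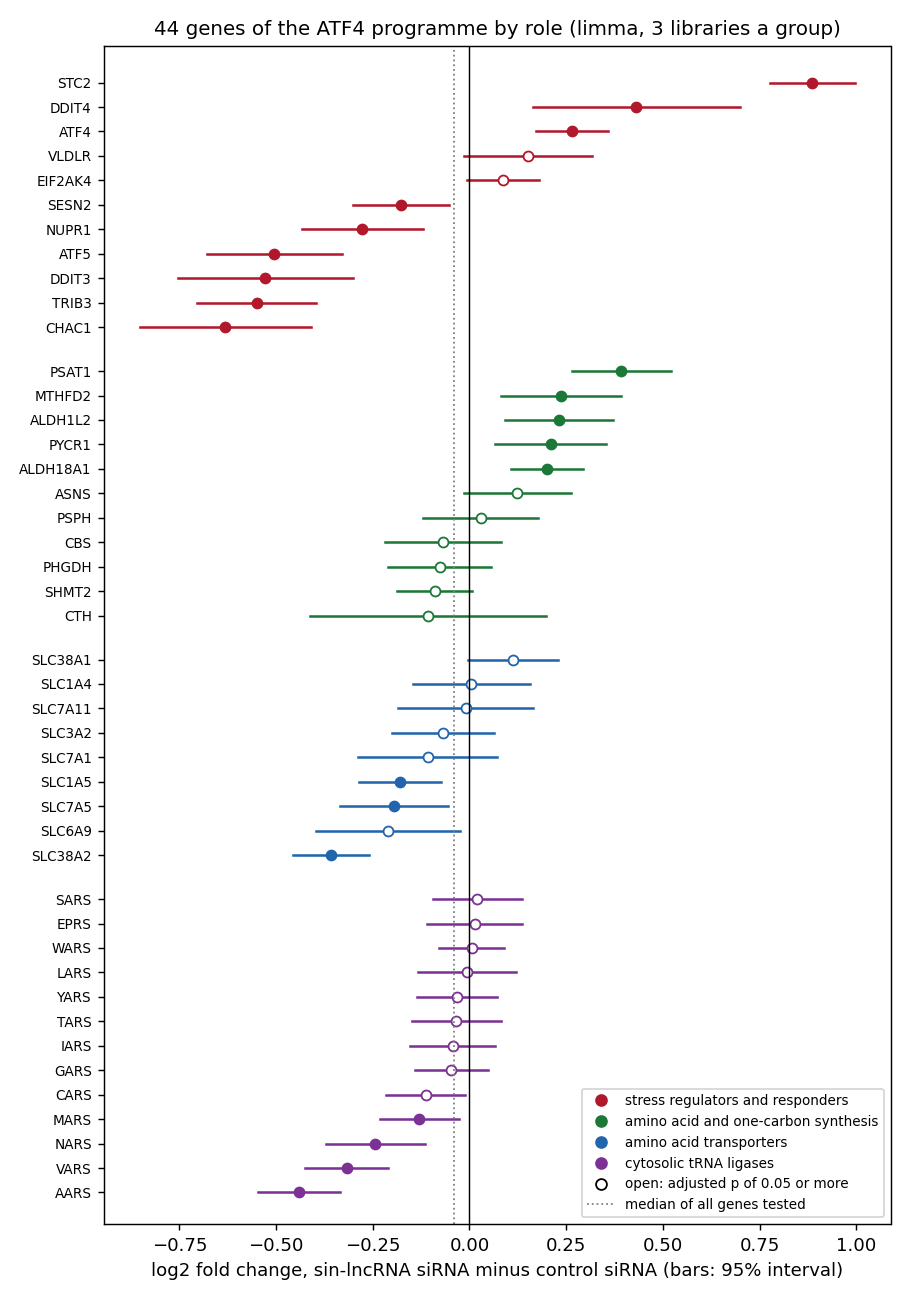
Log2 fold change of each of the 44 genes, knockdown minus control, with its 95% interval, grouped by role; filled points had an adjusted p under 0.05 and the dotted line is the median of all genes tested. The stress regulators spread from -0.63 (CHAC1) to 0.89 (STC2), the 5 filled enzymes all lie to the right of 0, and the filled transporters and ligases all lie to the left.

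Some of these genes carry the element that ATF4 is known for in the promoter window searched, and most do not. The genes were chosen by name as parts of the ATF4 programme, so the choice is not independent of that element. ATF4 binds DNA together with C/EBP proteins at a composite element, searched here as TGATGNAA (N is any base) on both strands. The search covered RefSeq promoter windows in GRCh38.p14, from 250 bases before to 50 bases after a start site. Windows were found for 35 of the 44 genes, and 14 of the 35 held the element (40.0%), against 4.46% of the 27305 genes in the promoter table and 3.60% of the 15843 protein-coding ones. The mean number of windows per gene was 1.57 for the 35 genes and 1.29 for all genes. It was present in 7 of 10 tRNA ligases and 5 of 8 transporters, but in 1 of 10 stress regulators and 1 of 7 enzymes with a window. A match is a run of letters and not a measured binding site, and a window without one says nothing of elements farther away. The matches are shown with up to 11 bases on either side, to give the letters and position found in each gene. The capitals are alike because the search required them, and the likeness of the bases around them was not measured. Each runs 5′ to 3′ along the gene's strand, with the matched bases in capitals (TTGCATCA is TGATGCAA read on the other strand).
CHAC1: ctcccctgccgTTGCATCActcctgccagg
ASNS: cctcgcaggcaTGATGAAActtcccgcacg
SLC1A5: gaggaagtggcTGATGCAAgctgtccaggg
SLC1A4: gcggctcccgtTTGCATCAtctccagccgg
SLC7A1: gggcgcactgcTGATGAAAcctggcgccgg
SLC38A1: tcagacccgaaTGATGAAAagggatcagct
SLC3A2: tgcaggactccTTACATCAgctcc
AARS: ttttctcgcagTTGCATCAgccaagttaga
NARS: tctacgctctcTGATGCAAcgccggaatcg
MARS: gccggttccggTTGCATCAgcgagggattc
CARS: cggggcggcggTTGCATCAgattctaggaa
GARS: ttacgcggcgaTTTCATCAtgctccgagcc
IARS: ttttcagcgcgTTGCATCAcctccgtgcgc
TARS: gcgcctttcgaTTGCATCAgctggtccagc
Of the 14 matches, 9 had C at the open position, and 10 began within 50 bases of a start site. The windows upstream of CHAC1 and AARS, which among the 44 are the stress regulator and the tRNA ligase with the largest falls, and of ASNS, whose element is a textbook amino acid response site, are given in full for the 250 bases before the start, again with the element in capitals (GRCh38.p14).
CHAC1 (chr15:40953221-40953470, + strand): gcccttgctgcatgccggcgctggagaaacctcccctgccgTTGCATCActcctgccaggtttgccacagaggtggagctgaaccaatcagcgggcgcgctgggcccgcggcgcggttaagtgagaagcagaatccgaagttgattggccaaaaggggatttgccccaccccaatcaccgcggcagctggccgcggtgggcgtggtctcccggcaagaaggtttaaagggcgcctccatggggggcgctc
AARS (chr16:70289507-70289756, - strand): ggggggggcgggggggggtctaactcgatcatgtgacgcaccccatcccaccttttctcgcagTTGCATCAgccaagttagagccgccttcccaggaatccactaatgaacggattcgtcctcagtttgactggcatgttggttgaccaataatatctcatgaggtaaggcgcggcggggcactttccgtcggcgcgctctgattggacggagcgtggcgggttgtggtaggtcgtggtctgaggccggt
ASNS (chr7:97872409-97872658, - strand): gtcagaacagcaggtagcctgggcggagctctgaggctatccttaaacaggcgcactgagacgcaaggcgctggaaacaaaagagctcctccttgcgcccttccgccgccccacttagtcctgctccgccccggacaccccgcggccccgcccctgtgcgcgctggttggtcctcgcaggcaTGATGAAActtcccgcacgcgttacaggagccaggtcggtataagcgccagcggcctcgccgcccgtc
The element began 209 bases before the start in CHAC1, 187 in AARS and 68 in ASNS. Among the 14 genes with the element, 5 fell (CHAC1, SLC1A5, AARS, MARS and NARS) and 0 rose, with a median log2 fold change of -0.09. Of the 21 genes whose windows lacked it, 6 rose and 6 fell, with a median of 0.01. This split was not tested. Over all genes tested, 17.5% rose and 23.5% fell, and over protein-coding ones 22.2% rose and 26.4% fell. Of the 14, 7 are ligases and 5 are transporters, and 0 genes of either role rose. Among the other pathway genes examined, those with the element moved both ways. ATF3, PPP1R15B, CEBPG and BCAT1 rose, and JDP2, HERPUD1, YARS2, GOT1 and SLC1A3 fell. MTHFD1L did not pass and FGF21 was not tested.

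ATF4 mRNA rose slightly, while the stress genes tied to it moved both ways. Among those described below, CHAC1, TRIB3, DDIT3, ATF5, NUPR1 and SESN2 fell, and STC2, DDIT4, ATF3 and GDF15 rose. ATF4 (ENSG00000128272.10, chr22:39915700-39918691, hg19 as are all gene positions here) stood at 166, 172 and 175 RPM in control replicates 1, 2 and 3 and at 200.4, 211 and 205 in the knockdowns. All knockdown libraries lay above all controls, a log2 change of 0.26 (SE 0.04, adjusted p = 0.00054). ATF4 has copies by name (pseudogenes) in the table, of which ATF4P3 and ATF4P4 held 18.7% and 16.2% of its level. Reads may be split between gene and copies. Their own log2 fold changes were 0.25 (SE 0.05) and 0.22 (SE 0.08), the same direction as the gene.

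STC2, a secreted stanniocalcin induced by endoplasmic reticulum stress, showed the largest rise of the 44. STC2 (ENSG00000113739.6, chr5:172741716-172756506) went from 109, 120 and 119 RPM in the controls to 206, 221 and 214 in the knockdowns. The groups were far apart, with a log2 change of 0.89 (SE 0.05, adjusted p = 5.0e-07), or 1.85-fold. DDIT4 (REDD1, an inhibitor of the growth kinase mTORC1, ENSG00000168209.4, chr10:74033678-74035794) stood at 19.3, 14.5 and 16.2 RPM in controls and at 18.9, 25.7 and 22.8 in knockdowns. Here knockdown replicate 1 fell below control replicate 1, so the groups overlapped. Its log2 fold change was 0.43 (SE 0.12, adjusted p = 0.015). DDIT4 was not called without control replicate 3 (0.42, adjusted p = 0.053), nor without knockdown replicates 2 (0.33, 0.063) or 3 (0.42, 0.059), nor under an untrended variance model (0.076).

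The fall was steepest in CHAC1, an enzyme that breaks down glutathione and is a sensitive readout of ATF4 activity. CHAC1 (ENSG00000128965.7, chr15:41245160-41248710) was measured at 37.8, 31.2 and 37.4 RPM in the controls and 20.5, 26.4 and 21.9 in the knockdowns. The lowest control stood above the highest knockdown, and the log2 fold change was -0.63 (SE 0.10, adjusted p = 0.00053). TRIB3 is a pseudokinase that ATF4 induces and that restrains ATF4 in turn. TRIB3 (ENSG00000101255.6, chr20:361261-378203) went from 47.2, 42.9 and 51.5 RPM to 31.1, 33.7 and 31.6, with no overlap and a log2 change of -0.55 (SE 0.07, adjusted p = 0.00012).

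DDIT3, which encodes the death-promoting factor CHOP, also fell. DDIT3 (ENSG00000175197.6, chr12:57910371-57914300) was at 15.8, 18.0 and 17.9 RPM in controls and at 10.8, 14.0 and 11.3 in knockdowns, without overlap. The log2 fold change was -0.53 (SE 0.10, adjusted p = 0.0019). DDIT3 overlaps the tRNA ligase gene MARS on the opposite strand, and MARS is the more abundant of the pair. As the strand setting of the counting is not given in the sources used here, reads from their shared bases are uncertain. ATF5, a related leucine zipper factor under the same translational control, overlaps NUP62 in the same way. ATF5 (ENSG00000169136.4, chr19:50431959-50437192) went from 20.7, 23.3 and 23.7 RPM to 14.6, 16.4 and 16.8, with a log2 change of -0.50 (SE 0.08, adjusted p = 0.00049) and no overlap. NUP62 itself had a log2 change of -0.12 (SE 0.05, adjusted p = 0.078).

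Smaller falls were seen in NUPR1, a stress-induced chromatin protein, and SESN2, a sestrin that senses leucine for mTORC1. NUPR1 (ENSG00000176046.7, chr16:28548606-28550495) stood at 28.8, 24.1 and 26.0 RPM in controls and at 21.3, 21.7 and 21.8 in knockdowns. Its knockdown libraries were nearly equal and lay below every control, with a log2 change of -0.28 (SE 0.07, adjusted p = 0.0091). SESN2 had a log2 change of -0.18 (SE 0.06, adjusted p = 0.026). Its call was lost without control replicate 1 (-0.14, adjusted p = 0.077) or 3 (-0.17, 0.090), and without knockdown replicate 1 (-0.15, 0.078) or 3 (-0.19, 0.058). SESN2 was not called under quantile normalization (-0.14, adjusted p = 0.065) or an untrended variance model (0.066) either. The DDIT4 value was 0.57 after a correction for GC content and length. After that correction SESN2 was at -0.07 (adjusted p = 0.21) and ATF4 at 0.38 (5.2e-06). Over all other fits CHAC1 ran from -0.74 to -0.44 and TRIB3 from -0.62 to -0.40. DDIT3 ran from -0.64 to -0.45 and ATF5 from -0.56 to -0.35. CHAC1, TRIB3, DDIT3 and ATF5 kept their calls in the other fits with the same threshold. EIF2AK4 (GCN2, the kinase that senses uncharged tRNA) and VLDLR (a lipoprotein receptor) did not pass, with 95% intervals of -0.01 to 0.18 and -0.01 to 0.32.

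**Figure D2:**
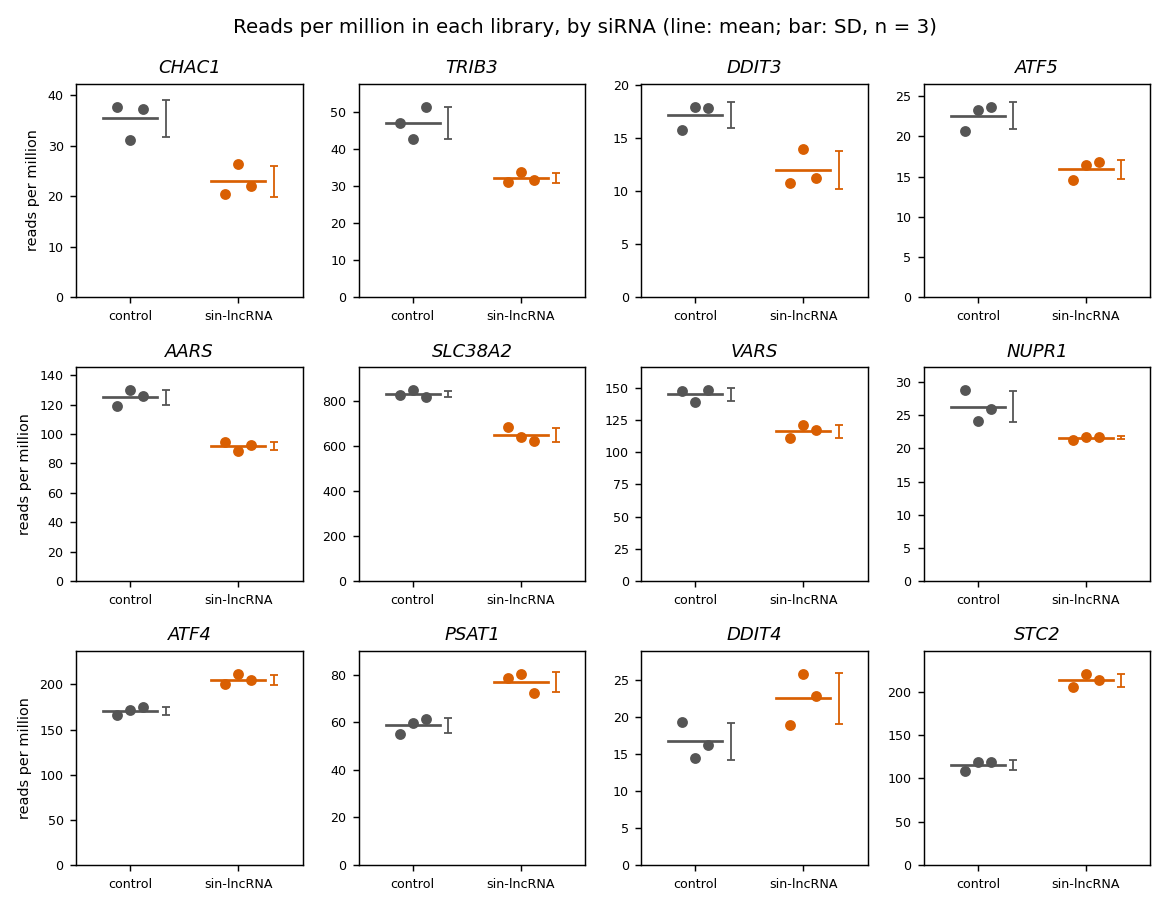
RPM in each library for the 12 genes described in full, controls in grey and knockdowns in orange, with the mean (line) and SD (bar, n = 3); every axis starts at 0. Of the 12 genes, DDIT4 is the one whose groups overlap.

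The enzymes of the set that rose act in serine, mitochondrial folate and proline metabolism. PSAT1, the transaminase of serine synthesis, rose most. PSAT1 (ENSG00000135069.9, chr9:80912059-80945009) went from 55.0, 59.7 and 61.1 RPM in controls to 78.6, 80.2 and 72.1 in knockdowns, without overlap. Its log2 fold change was 0.39 (SE 0.06, adjusted p = 0.00035). Its copy PSAT1P3, at 20.8% of the gene's level, had a log2 change of 0.39 (SE 0.07) too. The other steps of the pathway did not pass: PHGDH, which commits carbon to serine, was at -0.08 (95% interval -0.21 to 0.06), and PSPH, which completes it, at 0.03 (-0.12 to 0.18).

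In the mitochondrial folate pathway, MTHFD2 (a dehydrogenase that oxidises the folate-bound unit) rose by 0.24 on the log2 scale (SE 0.07, adjusted p = 0.020). ALDH1L2, which releases the unit as carbon dioxide, rose by 0.23 (SE 0.06, adjusted p = 0.013). SHMT2, which draws the unit from serine, was at -0.09 (95% interval -0.19 to 0.01). Both proline enzymes of the set rose: ALDH18A1, which starts the pathway from glutamate, by 0.20 (SE 0.04, adjusted p = 0.0030) and PYCR1, which ends it, by 0.21 (SE 0.06, adjusted p = 0.024). ALDH18A1 showed no overlap, at 138, 147 and 139 RPM in controls and 162, 162 and 164 in knockdowns.

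ASNS, the asparagine synthetase and a classical ATF4 target, had a log2 fold change of 0.12 (95% interval -0.01 to 0.26, adjusted p = 0.14). Its controls ran from 51.5 to 61.0 RPM and its knockdowns from 60.8 to 63.0, so the groups overlapped. The transsulfuration enzymes CBS (-0.07, interval -0.22 to 0.08) and CTH (-0.11, interval -0.41 to 0.20) did not pass either. CTH was the gene with fewest reads, 63 to 160 per library, and its interval was the widest of the 11. In all, 5 of 11 enzymes rose and 0 fell, with a median log2 fold change of 0.12. The share called was 45.5%, beside 41.0% of all genes tested and 48.6% of protein-coding ones. The count of called enzymes was 3 without knockdown replicate 2, where MTHFD2 (0.20, adjusted p = 0.076) and PYCR1 (0.15, 0.093) were not called. Of all genes tested, 6857 were called there, beside 7805 with all 6 libraries. MTHFD2 also lost its call without control replicate 1 (0.16, 0.059) or knockdown replicate 1 (0.23, 0.056), and PYCR1 without control replicate 2 (0.17, 0.072) or 3 (0.21, 0.066). After the GC and length correction ALDH1L2 was at 0.13 (adjusted p = 0.0505), and was not called, and PYCR1 was at 0.39 (adjusted p = 1.3e-05). An untrended variance model ended the calls of MTHFD2 (adjusted p = 0.090), ALDH1L2 (0.066) and PYCR1 (0.086).

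Of the 9 transporters, 3 fell and 0 rose (33.3% called, beside 41.0% of all genes tested and 48.6% of protein-coding ones). SLC38A2, a sodium-coupled carrier of small neutral amino acids that cells raise on amino acid shortage, had the highest level of all 44 genes per exon length, and it fell. SLC38A2 (ENSG00000134294.9, chr12:46751972-46766650) went from 830.0, 849 and 819.9 RPM in controls to 686, 643 and 622 in knockdowns. The groups were well apart, with a log2 change of -0.36 (SE 0.04, adjusted p = 0.00011). SLC1A5, the main glutamine importer, fell by 0.18 on the log2 scale (SE 0.05, adjusted p = 0.012), from 229, 232 and 241 RPM to 195, 217 and 209. SLC7A5, the light chain of the large neutral amino acid exchanger, fell by 0.19 (SE 0.06, adjusted p = 0.030), and its groups overlapped.

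The other 6 transporters did not pass. SLC3A2, the heavy chain that SLC7A5 and SLC7A11 both need, was at -0.07 (95% interval -0.20 to 0.06). SLC7A11, the cystine importer behind glutathione synthesis, was at -0.01 (-0.18 to 0.17). SLC7A1 (arginine and lysine) was at -0.11, SLC38A1 (glutamine) at 0.11, SLC1A4 (alanine, serine and cysteine) at 0.00 and SLC6A9 (glycine) at -0.21 with an adjusted p of 0.066. The median of the 9 was -0.11. Without control replicate 3 the count of called transporters dropped from 3 to 1, as SLC1A5 (-0.16, adjusted p = 0.066) and SLC7A5 (-0.16, 0.13) were not called. Of all genes tested, 5803 were called in that fit, beside 7805 with all 6 libraries. SLC7A5 also lost its call without control replicate 2 (-0.17, 0.063), and with knockdown replicate 1 (-0.15, 0.10) or 3 (-0.18, 0.10) left out. SLC1A5 was not called under quantile normalization either (-0.13, adjusted p = 0.051), and an untrended variance model ended the calls of SLC1A5 (0.068) and SLC7A5 (0.11). After the GC and length correction SLC1A5 was at -0.04 (adjusted p = 0.59), SLC7A5 at -0.09 (0.34), and SLC7A11 at -0.17 (0.034), which passed. SLC7A1 passed without control replicate 1 (-0.21, 0.025) and SLC38A1 without control replicate 2 (0.15, 0.047).

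Among the 13 cytosolic tRNA ligases, each named for the amino acid it loads, 4 fell and 9 did not pass. The share called was 30.8%, beside 41.0% of all genes tested and 48.6% of protein-coding ones. AARS (alanine) had the largest fall of them: AARS (ENSG00000090861.11, chr16:70286198-70323446) went from 119, 129.7 and 126 RPM in controls to 94.4, 88.8 and 92.7 in knockdowns. The groups were well apart, with a log2 change of -0.44 (SE 0.05, adjusted p = 4.1e-05). VARS (valine, ENSG00000204394.8, chr6:31745295-31763730) fell from 148, 139 and 148 RPM to 111, 121 and 117, again without overlap. Its log2 fold change was -0.32 (SE 0.05, adjusted p = 0.00043), and -0.19 after the GC and length correction (adjusted p = 0.0063). NARS (asparagine) fell by 0.24 on the log2 scale (SE 0.06, adjusted p = 0.0062), a call lost under an untrended variance model (adjusted p = 0.0509). MARS (methionine) fell by 0.13 (SE 0.05, adjusted p = 0.043). The MARS call had the highest adjusted p of the 21 and ended on leaving out control replicate 2 (-0.10, adjusted p = 0.15) or 3 (-0.12, 0.14), or knockdown replicate 1 (-0.13, 0.077), 2 (-0.13, 0.096) or 3 (-0.13, 0.10), as well as in 7 of the other fits with the same threshold.

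The other 9 ligases, CARS, EPRS, GARS, IARS, LARS, SARS, TARS, WARS and YARS, did not pass, with log2 fold changes from -0.11 to 0.02. Their 95% intervals lay between -0.22 and 0.14, so larger changes lie outside the intervals. WARS (tryptophan) had overlapping groups, at 249.6, 243 and 242 RPM in controls and 248, 243 and 246 in knockdowns. EPRS, which loads both glutamate and proline, was at 253, 288 and 290.0 RPM in controls and 288, 268 and 282 in knockdowns. CARS (cysteine), at -0.11 (adjusted p = 0.075), passed without control replicate 1 (-0.14, 0.044) and after the GC and length correction (-0.13, 0.018).

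Of the 7 cytosolic ligases outside the set, 5 fell and 0 rose (71.4% called, beside 41.0% of all genes tested and 48.6% of protein-coding ones). Their median log2 fold change was -0.30, beside -0.04 for the 13. FARSA and FARSB, the subunits of the phenylalanine ligase, fell by 0.54 (SE 0.06) and 0.38 (SE 0.06) on the log2 scale, and DARS (aspartate) by 0.45 (SE 0.06), with adjusted p-values of 3.7e-05, 0.00049 and 0.00021. The composite element was found in 0 of the 6 with a promoter window. Of 17 mitochondrial ligases, which charge tRNAs inside the organelle, 1 rose and 7 fell (47.1% called), with a median of -0.13. LARS2 fell by 0.64 (SE 0.07, adjusted p = 3.2e-05), HARS2 by 0.51 (SE 0.05, 3.7e-05) and CARS2 by 0.46 (SE 0.07, 0.00062). Of the 3 scaffold proteins that hold ligases together, EEF1E1 fell by 0.48 (SE 0.09, adjusted p = 0.0016) and 2 did not pass. The difference between these classes was not tested.

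**Figure D3:**
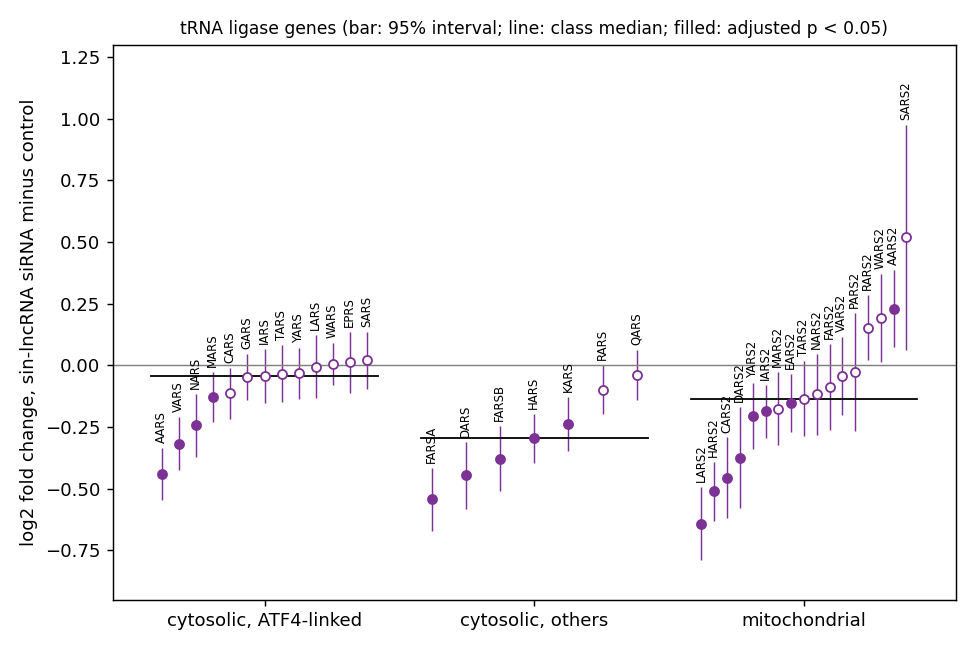
Log2 fold change with its 95% interval for tRNA ligase genes in 3 classes, cytosolic and linked to ATF4 (13), other cytosolic (7) and mitochondrial (17); filled points passed the test and the line is the class median. The class medians are -0.04, -0.30 and -0.13.

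Upstream of ATF4, the kinases and the eIF2 machinery shifted in both directions. Of 15 genes 5 rose and 6 fell, with a median of -0.08. The share called was 73.3%, beside 41.0% of all genes tested and 48.6% of protein-coding ones. EIF2AK3 (PERK, the kinase of the endoplasmic reticulum) rose by 0.28 on the log2 scale (SE 0.06, adjusted p = 0.0025). EIF2AK2 (PKR, activated by double-stranded RNA) rose by 0.23 (SE 0.06, adjusted p = 0.016). The EIF2AK2 call was lost without control replicate 3 (0.21, adjusted p = 0.062), on leaving out knockdown replicate 1 (0.19, 0.059) or 3 (0.18, 0.080) and after the GC and length correction (0.09, 0.18). EIF2AK1 (HRI, the haem-sensing kinase) was at -0.11 (adjusted p = 0.065), and passed without knockdown replicate 1 (-0.13, 0.043) and after the GC and length correction (-0.15, 0.0043). PPP1R15B, the constitutive subunit that directs a phosphatase to eIF2, rose by 0.43 (SE 0.05, adjusted p = 5.3e-05). PPP1R15A, the stress-induced subunit of the same phosphatase, moved the other way and fell by 0.28 (SE 0.07, adjusted p = 0.0093). Its call was lost without control replicate 3 (-0.22, adjusted p = 0.051), under an untrended variance model (0.060) and after the GC and length correction (-0.15, 0.069). Of the 5 subunits of the eIF2B exchange factor, which phosphorylated eIF2 blocks, 4 fell and 1 rose. EIF2B3 fell by 0.54 (SE 0.05, adjusted p = 2.3e-05), EIF2B1 by 0.38 (SE 0.06, 0.00036), EIF2B4 by 0.25 (SE 0.05, 0.0015) and EIF2B2 by 0.21 (SE 0.05, 0.0085). EIF2B2 was not called without control replicate 3 (-0.18, adjusted p = 0.053). EIF2B5 rose by 0.20 (SE 0.06, adjusted p = 0.032), but not without control replicate 1 (0.15, 0.098) or knockdown replicate 3 (0.14, 0.14), or under an untrended variance model (0.097). The listed span of EIF2B5 (chr3:183852826-184402546) is by far the longest of the 5 subunits. Overlap with other genes was checked for the 44 genes only, so its value is uncertain. The other called genes of this list were GCN1L1, which fell by 0.28 (SE 0.05, adjusted p = 0.00086), and IMPACT, which rose by 0.38 (SE 0.06, 0.00033). Neither was followed through the other fits. PPP1R15A, EIF2B2, EIF2B4, EIF2B5, GCN1L1 and IMPACT were chosen for naming after their values were seen.

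Among 14 further genes tied to ATF4, 13 were tested, of which 4 rose and 4 fell, with a median of 0.01. The share called was 61.5%, beside 41.0% of all genes tested and 48.6% of protein-coding ones. ATF3, an early stress factor downstream of ATF4, had a larger log2 fold change than any of the 44. It stood at 3.75 ± 0.21 RPM in controls and, over the knockdowns, 12.4 ± 0.9 (SD, n = 3), which is 1.72 higher on the log2 scale (SE 0.09, adjusted p = 3.9e-07). GDF15, a stress cytokine, rose by 0.73 (SE 0.16, adjusted p = 0.0044), and not under robust variance estimation (0.080). CEBPG, a dimer partner of ATF4, rose by 0.32 (SE 0.06, adjusted p = 0.0015). CEBPB, another partner, was at -0.09 (SE 0.14, adjusted p = 0.66). It ran from -0.30 without control replicate 2 (adjusted p = 0.0099) to 0.04 without control replicate 1. SQSTM1, an autophagy receptor, fell by 0.44 (SE 0.06, adjusted p = 0.00013). FGF21, a secreted ATF4 target, had no read in the 6 libraries. Counting error alone leaves room for 3 reads where 0 were seen, or 0.0596 to 0.134 RPM depending on the library.

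Of 24 further enzymes tested of 26 listed, 2 rose and 14 fell, with a median of -0.19. The share called was 66.7%, beside 41.0% of all genes tested and 48.6% of protein-coding ones. BCAT2, the mitochondrial transaminase of branched-chain amino acids, fell by 0.96 (SE 0.10, adjusted p = 2.4e-05). The cytosolic folate enzymes MTHFD1 and SHMT1 fell by 0.72 (SE 0.05, adjusted p = 2.0e-06) and 0.69 (SE 0.10, 0.00036). Of their mitochondrial counterparts, MTHFD2 and SHMT2 stood at 0.24 and -0.09, as given above. MTHFD1L, another counterpart of MTHFD1, was at 0.13 (SE 0.05, adjusted p = 0.053), and was named after its value was seen. PYCRL, which like PYCR1 makes proline in its last step, fell by 0.61 (SE 0.09, adjusted p = 0.00046), and was named after its value was seen. Of 19 further transporters tested of 23 listed, 4 rose and 6 fell (52.6% called), with a median of -0.10. SLC7A6, an arginine exchanger, rose by 0.51 (SE 0.05, adjusted p = 2.9e-05). SLC38A5, a glutamine carrier, fell by 0.50 (SE 0.07, adjusted p = 0.00022). SLC38A4 fell by 0.62 (SE 0.17, 0.014), and was not called without control replicate 2 (-0.47, 0.062).

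Levels of the 44 genes per kilobase of exon ran in controls from 126 RPM per kb for SLC38A2 to 1.18 for VLDLR. After SLC38A2 came GARS (77.0), SLC1A5 (70.2), ATF4 (68.0) and SARS (59.6). At the low end stood NUPR1 (4.63), SLC1A4 (2.11), SLC6A9 (1.75) and CTH (1.42). Neighbours in this order often could not be ranked: in 29 of 43 neighbouring pairs the control ranges overlapped, as for SLC1A5 and ATF4. By role, the median level in controls was 36.1 RPM per kb for ligases, 18.7 for transporters, 12.8 for enzymes and 12.4 for stress regulators. In knockdowns the medians were 35.2, 18.4, 13.9 and 10.6. ATF4 moved from rank 4 to rank 2, STC2 from 20 to 13, and TRIB3 from 25 to 30. Exon lengths were taken from GENCODE 29, a later annotation than the table's, so levels per length are approximate.

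**Figure D4:**
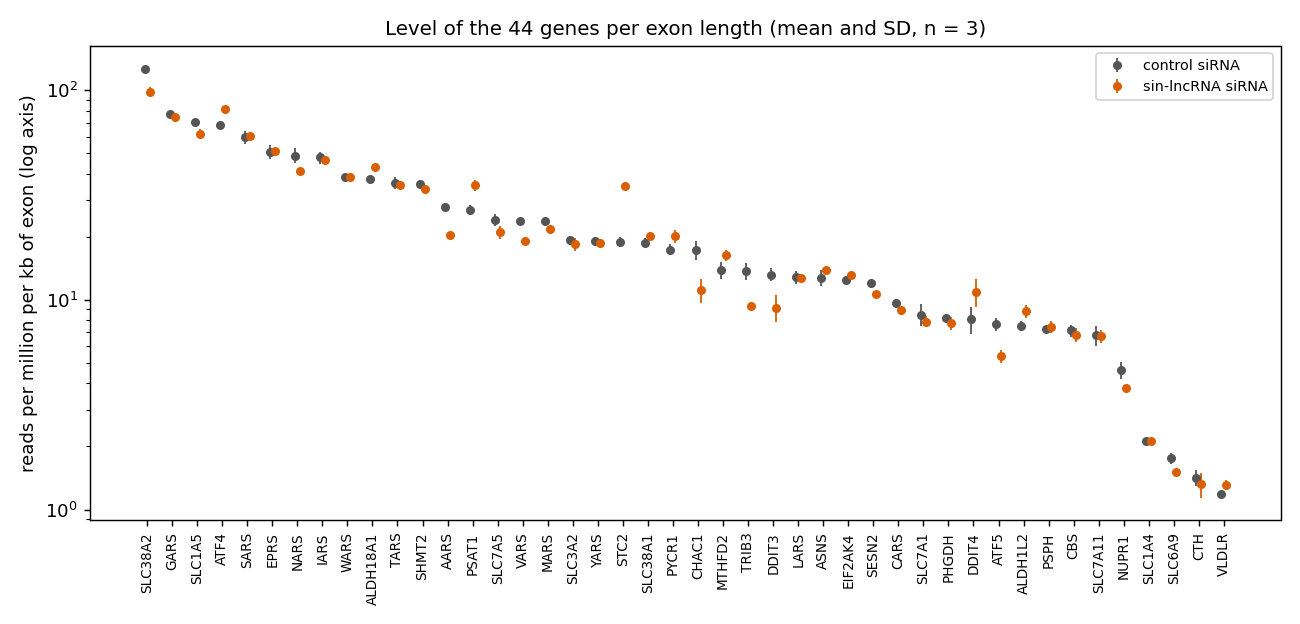
Mean level of each of the 44 genes in RPM per kb of exon on a log axis, ordered by the control mean, with the SD (n = 3) as bars; controls in grey and knockdowns in orange. The order runs from SLC38A2 at 126 to VLDLR at 1.18 in controls, and STC2 moves from 18.9 to 34.9.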

How the data were processed

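The authors deposited 1 table of log2 values for 6 libraries. Its name speaks of normalized counts, but 100% of values become whole reads (tolerance 1e-06) once the 0.5-read offset and each library's size are removed, so the values are log2 of reads plus 0.5 per 1000000 of an effective library size. Bowtie2, featureCounts and the build hg19 are named, with no role or version, in the submitters' processing notes; the strand setting is not given in the sources used here. RPM is recovered reads per 1000000 of that effective size, without the offset. The effective size was 0.9885 to 1.009 times the reads in genes. Reads were single, 50 bases long, per the labels' protocols.

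The fit was limma 3.58.1 (R 4.3.3) on the deposited log2 values, group as the sole term, eBayes with an intensity trend, two-sided, on 19048 genes with a mean of at least 10 normalized reads. Calls were made at 0.05 after Benjamini-Hochberg adjustment over all of these genes. Fold changes carry the 0.5-read offset. Full values are given for ATF4 and for called genes past 0.5 in either direction on the log2 scale, filled up to 12 by size. Library values of ALDH18A1, SLC1A5, WARS and EPRS are printed outside this rule. From each list of other pathway genes, up to 3 called genes with the largest change were named, beside the eIF2 kinases, CEBPB, CEBPG and ATF3. PPP1R15A, EIF2B2, EIF2B4, EIF2B5, GCN1L1, IMPACT, PYCRL and MTHFD1L were added after their values were seen, as were other pathway genes named for the element. The members and lists were chosen with earlier results of these data known. Replicates differed by more than sampling noise (chi-square per degree of freedom 2.87 to 11.0), so each library counted once. The alternatives were other offsets, filters, scalings, variance models and thresholds, voom, thinning, a replicate block, leaving out each library and, added after the data were seen, a GC and length correction from GENCODE 29 transcripts. Scripts were tested on simulated data.

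Of the 44 genes, 26 overlap another listed gene, and 7 of them one with at least 5% of their level: ATF5, DDIT3, ALDH1L2, SLC1A5, SLC6A9, MARS and YARS. Copies by name exist for 6. Values of these genes are uncertain to that extent. RefSeq promoters were matched by gene ID and symbol.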

Additional observations from a re-analysis of the deposited data

How the results depend on the processing

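Of the 21 called genes, 12 kept direction and call in all 20 other fits that used the same threshold, 9 lost the call in at least 1 and 0 changed direction. Counts moved with stricter rules by construction: adjusted p under 0.01 left 5195 of all genes and 13 of the 44 (4 higher; 2 enzymes; 1 transporter), and a minimum log2 change of 1 in either direction left 561 of all genes, 1 of the other pathway genes and 0 of the 44. Untrended eBayes left 12 of the 44 (4 higher and 8 lower, among them 2 enzymes, 1 transporter and 2 ligases). It left 6608 of the 19048 genes tested, beside 7805 with the intensity trend. The cause was not tested. With a library left out, 15 to 22 of the 44 were called (5 to 8 higher, 9 to 15 lower). Of all genes tested, 5803 to 7330 were called in those fits. Called enzymes numbered 3 to 5 and called transporters 1 to 4. The median log2 fold change of members ran from -0.0854 to -0.0211.

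Replicate numbers are shared in the labels, but the values did not show pairing. Libraries with equal numbers had deviations whose correlations were -0.149, -0.183 and 0.0655, and those with unequal numbers ran from -0.0758 to 0.204. With 3 libraries a group, this cannot settle whether the libraries were paired. Adding the replicate block, 17 of the 44 and 6454 of all genes were called, and DDIT4 (adjusted p = 0.057), SESN2 (0.074), PYCR1 (0.074) and MARS (0.092) were not.

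Uncalled genes near 0 changed sign in some fits, with no call there; the cause was not tested. Library totals gave 0.010 for SLC7A11 and 0.0140 for LARS, quantile normalization 0.0228, 0.0206 and, for TARS, 0.0113, trimmed mean factors 0.00163 for LARS, and thinning -0.00724 for PSPH. The GC and length correction gave 0.0358 for CBS, 0.0439 for SLC3A2, -0.0592 for SLC1A4, -0.0535 for EPRS, 0.0302 for YARS and 0.147 for CEBPB. With a library left out, PSPH ran from -0.00477 to 0.0850, CTH from -0.190 to 0.00724, SLC7A11 from -0.0965 to 0.0668, SLC1A4 from -0.0210 to 0.0390, EPRS from -0.0505 to 0.0468, LARS from -0.0628 to 0.0272, SARS from -0.0380 to 0.0550, TARS from -0.0921 to 0.000530, WARS from -0.00330 to 0.0195 and CEBPB from -0.295 to 0.0435. Depth limits CTH most, at 63 to 160 reads.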
